A study of Mus musculus with 12 samples.

Results

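Gene expression in J774A.1 cells given hypochlorous acid (HOCl) at 20 µM was compared with that in cells given the vehicle alone, gene by gene. A gene was taken when 3 or more of the 6 libraries of these groups put it at 1 FPKM or above (FPKM is a fragment count scaled to exon length and library size), which left 11632 of the 28977 genes in the table. J774A.1 is a mouse macrophage-like tumour line, grown in serum-containing medium. The vehicle group received HBSS, a balanced salt solution, with 0 µM HOCl, and the treated group received 20 µM HOCl in the same solution. Both were exposed for 1 h and then kept in full medium for 24 h before RNA was collected, so the values describe the cells a day after the oxidant. The series holds 4 groups of 3 libraries, and the other groups were cells given 100 µM HOCl in HBSS and cells kept in cell media. Doses on both sides of lethality were used, without a label for which dose was the lethal one. Its title is about genes of mitophagy being raised by HOCl, and this comparison asks what the lower dose did relative to the vehicle. Nothing in the labels says that replicates were separate cultures, so the p-values rest on the spread among these libraries, which may be technical.

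HOCl is the oxidant that myeloperoxidase, an enzyme of neutrophils and some macrophages, makes from hydrogen peroxide and chloride. It reacts fastest with sulphur in cysteine, methionine and glutathione. In macrophages, oxidation of cysteines in KEAP1 frees the transcription factor NRF2, which turns on genes for glutathione, thioredoxin, heme oxygenase and NADPH supply. Damaged mitochondria can be marked by the kinase PINK1 or by outer membrane receptors and then taken into autophagosomes, the process called mitophagy.

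The 6 libraries rested on 19549689 to 21408541 reads, as recovered from the steps between FPKM values. Pairwise correlations of log2(FPKM + 1) were 0.9898 to 0.9935 within HBSS, 0.9875 to 0.9938 within 20 µM and 0.9847 to 0.9942 between them. The lowest between-group values belonged to 20 µM replicate 3, at 0.9847 to 0.991, against 0.9912 to 0.9942 for the other two. On the first principal component of the 9 libraries given HBSS or HOCl, which held 46.89% of the variance, that replicate stood at 6.62, while the other 20 µM libraries stood at −13.9 and −5.82 and the HBSS libraries at −17.1, −3.14 and −7.81. The macrophage label matched the markers. Lyz2, lysozyme, was at 2155 ± 137 FPKM in HBSS (mean ± SD, n = 3) and Cd68 at 834 ± 19, and 27 of 31 macrophage genes in the table were measured. Cd36, a scavenger receptor, was below the minimum in both groups. Of the T cell markers, Lck at 3.94 and Cd5 at 5.29 FPKM were measured while Cd3d, Cd4, Cd8a and Trac were near 0, and of the neutrophil markers only S100a8 and Csf3r passed. No B cell, fibroblast, epithelial, endothelial or erythroid marker did. The peroxidase genes, Mpo among them, summed to at most 0.126 FPKM in any of the 6 libraries.

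At 20 µM no gene passed the test. limma called 0 of 11632 genes at an adjusted p under 0.05 (0% called), and the smallest adjusted p was 0.9998. An unadjusted p under 0.05 was reached by 354 genes, 3.04% of those tested. limma-voom on the recovered reads also called 0, with 291 genes at an unadjusted p under 0.05. The mean was higher at 20 µM for 6254 genes (53.8%) and lower for 5378 (46.2%), and the median log2 difference was 0.0055. In the same model, 100 µM against the same HBSS libraries gave 30 called genes (0.258%), 13 higher and 17 lower. The median size of the difference, regardless of sign, was 0.0398 at 20 µM and 0.124 at 100 µM.

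A p that misses the threshold does not show that a gene stayed the same, so the 95% confidence interval of each log2 difference was used to say what sizes of change the data allowed. For 10635 genes (91.4%) the interval lay within 1.5-fold in both directions. Among the 7394 genes that averaged 5 FPKM or more this held for 7099, or 96.01%. The median standard error was 0.0716 on the log2 scale. In 352 genes the interval reached past 2-fold, and there the data could not show whether a large change took place. The estimated difference itself was past 1.5-fold in 100 genes, of which 30 averaged 5 FPKM or more, and past 2-fold in 7.

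As a description with no test, every 20 µM library was above every HBSS library for 476 genes (4.09%), and below for 404 (3.47%), together 880 (7.57%). At 100 µM the groups did not overlap for 4009 genes (34.5%). The plot of level against difference shows these genes spread over the whole range of expression.

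**Figure D1:**
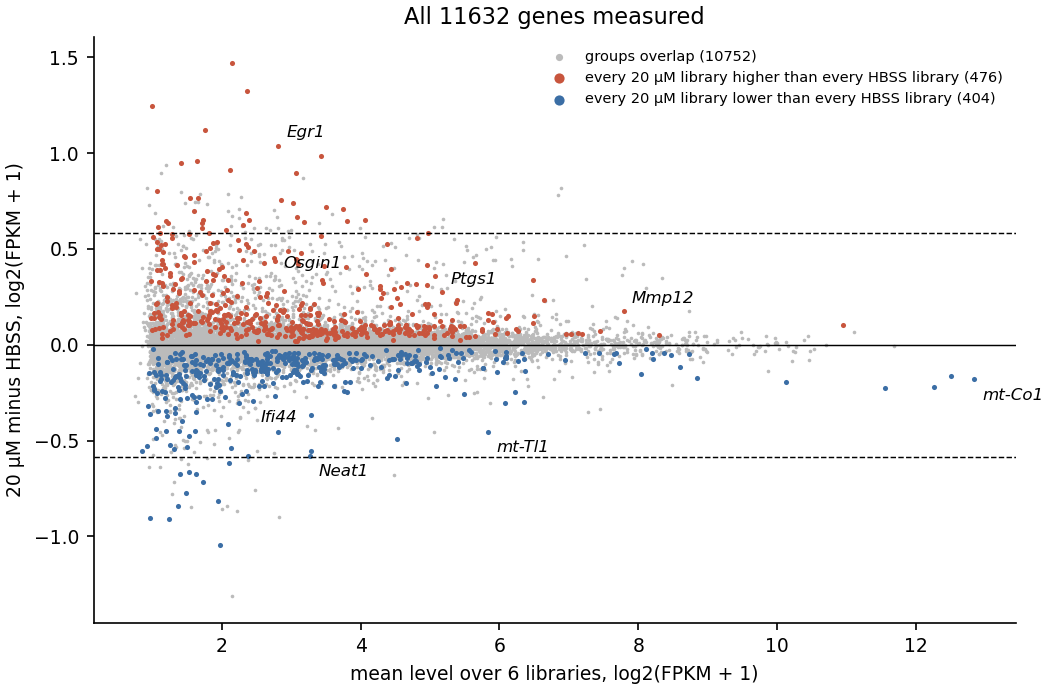
Each point is 1 of the 11632 genes, with its mean level over the 6 libraries (x axis, log2(FPKM + 1)) and the difference of 20 µM minus HBSS (y axis, same scale). Dashed lines mark 1.5-fold; the 476 genes in red and 404 in blue had groups that did not overlap, and no gene was called.

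The genes farthest apart, among those averaging 5 FPKM or more whose groups were separate, were led by Egr1, an immediate early zinc-finger transcription factor. Egr1 stood at 6.82, 2.31 and 2.39 FPKM in the HBSS libraries and at 7.34, 7.20 and 10.1 at 20 µM. The groups were separated by a narrow gap, since HBSS replicate 1 was close to the lowest 20 µM libraries. The log2 difference was 1.04 (SE 0.39, 95% interval 0.16 to 1.92, unadjusted p = 0.026 with limma), it was not called, and leaving out single libraries moved it between 0.83 and 1.45. At 100 µM Egr1 averaged 4.74 FPKM.

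The other 7 genes of this kind that were higher were all without a protein product. They were the snoRNA gene Gm25128 and the processed pseudogenes Gm10705, Gm7206, Gm7332, Gm6311, Gm13461 and Gm7432, with log2 differences of 0.67 to 0.99. Gm25128 had 6.76, 3.97 and 3.97 FPKM in HBSS and 12.2, 8.63 and 8.75 at 20 µM, which were 11, 6 and 6 reads against 19, 14 and 13. Gm7332 had 4.01, 5.54 and 5.75 FPKM against 8.603, 7.84 and 11.2, or 39 to 52 reads against 76 to 99. Processed pseudogenes are copies of mature mRNAs, so their reads may be shared with the parent gene and their values are uncertain.

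Neat1, the long noncoding RNA around which nuclear paraspeckles form, was the lowest relative to HBSS among genes averaging 5 FPKM or more whose groups were separate. Its levels were 9.36, 11.7 and 10.7 FPKM in HBSS and 6.98, 6.91 and 6.31 at 20 µM, with 4162 to 4815 reads against 2563 to 3062. All 20 µM libraries were below all HBSS libraries, and the 20 µM values lay close together. The log2 difference was −0.58 (SE 0.16, 95% interval −0.94 to −0.22, unadjusted p = 0.0053), between −0.66 and −0.51 with single libraries left out, and was not called. At 100 µM Neat1 averaged 5.04 FPKM, a difference from the same HBSS libraries of −0.96.

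Of the other 7 genes farthest below HBSS, mt-Tl1 had the smallest unadjusted p of all genes. It is the mitochondrial tRNA for leucine that lies between the large ribosomal RNA and mt-Nd1. mt-Tl1 was at 57.9, 69.8 and 68.3 FPKM in HBSS and at 47.5, 48.7 and 45.7 at 20 µM, with 93 to 104 reads against 67 to 78. The log2 difference was −0.45 (SE 0.072, unadjusted p = 0.000158). Without HBSS replicate 1, its lowest HBSS library, the difference was −0.54 and mt-Tl1 was called by limma with an adjusted p = 0.0451. That fit called 1 other gene, Gm37120 (1.64, 0.177 and 0.127 FPKM in HBSS, with the omitted library the first, and 1.29, 1.60 and 1.45 at 20 µM), and no other omission of a library called any. At 100 µM mt-Tl1 averaged 68.2 FPKM. The remaining genes were the microRNA genes Mir133a-2 and Mir1898, the pseudogenes Gm11702 and Gm10222, Gm10226 and the lincRNA Gm42047, with log2 differences of −0.30 to −0.56. Mir133a-2 rested on 9 to 27 reads per library.

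**Figure D2:**
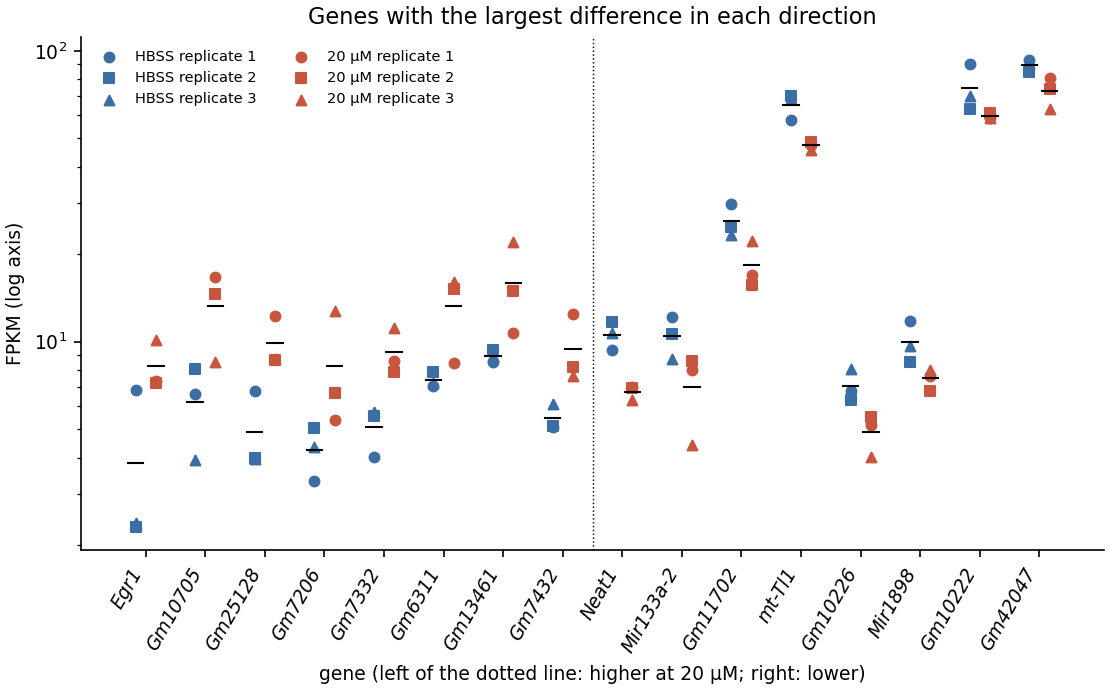
Levels of the 16 genes with the largest difference in each direction (x axis) in each library, in FPKM on a log axis. Blue points are HBSS and red points 20 µM, with the shape giving the replicate and the black line the group mean; all 16 pairs of groups are separate, and none was called.

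The genes with the next smallest unadjusted p held 1 protein with a known role in the cell cycle. Sertad1, a cofactor that binds CDK4, was at 5.53, 5.54 and 6.06 FPKM in HBSS and 7.30, 6.90 and 7.23 at 20 µM. Its groups were clearly apart, with a log2 difference of 0.28 (SE 0.055, unadjusted p = 0.00074). Gm7879, annotated as protein-coding, had 13.3, 12.9 and 12.7 FPKM against 16.1, 15.9 and 16.3. The others were Gm37689 (6 to 11 reads against 1 to 3), Gm20305 (4 reads in each HBSS library against 9 to 14) and Gm7887, a processed pseudogene at 16.3 ± 1.1 and 20.5 ± 1.3 FPKM.

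Classes of gene differed in their medians. The 9739 protein-coding genes had a median log2 difference of 0.0035, with 338 above and 324 below HBSS without overlap. Of 884 processed pseudogenes, 652 were higher and 232 lower, with a median of 0.13. Without overlap 94 (10.63%) were higher and 19 (2.149%) lower, where all genes had 4.09% and 3.47%. The excess was largest in 20 µM replicate 3. Relative to the HBSS mean, the median pseudogene stood at 0.011, 0.095 and 0.29 in the 20 µM replicates, and without replicate 3 the median difference was 0.061. With the trend on exon length taken out it was 0.091. Pseudogenes are short, and the part of library composition by length in this result was not tested. Across all genes, Spearman's coefficient between exon length and a library's difference from the HBSS mean was 0.131, −0.295 and 0.103 in the HBSS libraries and 0.178, −0.0793 and −0.254 at 20 µM, so that 20 µM replicate 3 and HBSS replicate 2 both leaned to short genes. The 114 snoRNA genes had 76 higher and a median of 0.16, which was 0.27 without HBSS replicate 1 and 0.081 without HBSS replicate 2. The median snoRNA stood at 0.23 in HBSS replicate 1 itself. Without overlap 12 snoRNA genes (10.53%) were higher and 3 (2.632%) lower. The 160 lincRNA genes, Neat1 among them, had 60 higher and 100 lower, with a median of −0.040. Without overlap 15 (9.375%) were lower and 6 (3.75%) higher, where all genes had 3.47% and 4.09%.

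The transcripts of the mitochondrial genome, which encodes 13 subunits of the respiratory chain, stood lower in most cases. Their mRNAs made up 8.69%, 7.62% and 8.47% of all FPKM in HBSS and 7.31%, 7.28% and 7.402% at 20 µM, so the groups did not overlap. Group means were 8.26 ± 0.57% and 7.33 ± 0.06%, and 7.38 ± 0.52% at 100 µM. In bulk RNA, fewer cells with a transcript and less of it per cell cannot be told apart. Of the 13 mRNAs, 10 were lower in mean and 3 higher, 5 were lower without overlap and none was called, where 3.47% of all genes were lower without overlap. The 20 µM libraries differed in this list. Relative to the HBSS mean, the median mRNA stood at −0.21 and −0.20 in 20 µM replicates 1 and 2. In 20 µM replicate 3 it stood at 0.10, above the HBSS libraries at 0.016, −0.070 and 0.022. The list's median log2 difference was −0.14, with −0.22 without HBSS replicate 2, −0.058 without HBSS replicate 3 and −0.024 with quantile normalization. Quantile normalization sets the values at each rank equal across libraries, so it can hide differences in the most abundant genes.

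The 5 mRNAs lower without overlap were the 5 most abundant of the 13. mt-Nd1, a core subunit of complex I, had 5321, 5053 and 5425 FPKM in HBSS and 4331, 4515 and 4731 at 20 µM (log2 difference −0.22, SE 0.077). mt-Nd2 of the same complex had 3418, 3003 and 3323 FPKM against 2795, 2717 and 2813, and mt-Nd4 had 1259, 1153 and 1184 against 1031, 1064 and 1047. Each of these groups was separate, with unadjusted p of 0.020, 0.015 and 0.028. mt-Co1 of cytochrome oxidase and mt-Cytb of complex III were also lower without overlap, with log2 differences of −0.18 and −0.16. Quantile normalization left mt-Nd1 at a difference of 0, mt-Nd2 at −0.13 and mt-Nd4 at −0.16. This method gives a gene that keeps its rank the same value in every library. The 0 for mt-Nd1 therefore says nothing about whether its level differed. The 3 higher mRNAs were less abundant, and 20 µM replicate 3 set them apart. mt-Co3 had 67.1, 64.4 and 56.5 FPKM in HBSS and 58.5, 73.9 and 158.5 at 20 µM. mt-Nd3 had 33.0, 45.5 and 39.7 FPKM against 41.5, 45.9 and 82.5, and mt-Co2 had 273, 336 and 231 against 275, 318 and 500.3. In all 3 the other 20 µM libraries lay within or near the HBSS range. Both ribosomal RNAs and 9 of 11 measured tRNAs of the mitochondrial genome were lower in mean, with 1 of each lower without overlap, mt-Rnr2 and mt-Tl1.

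**Figure D3:**
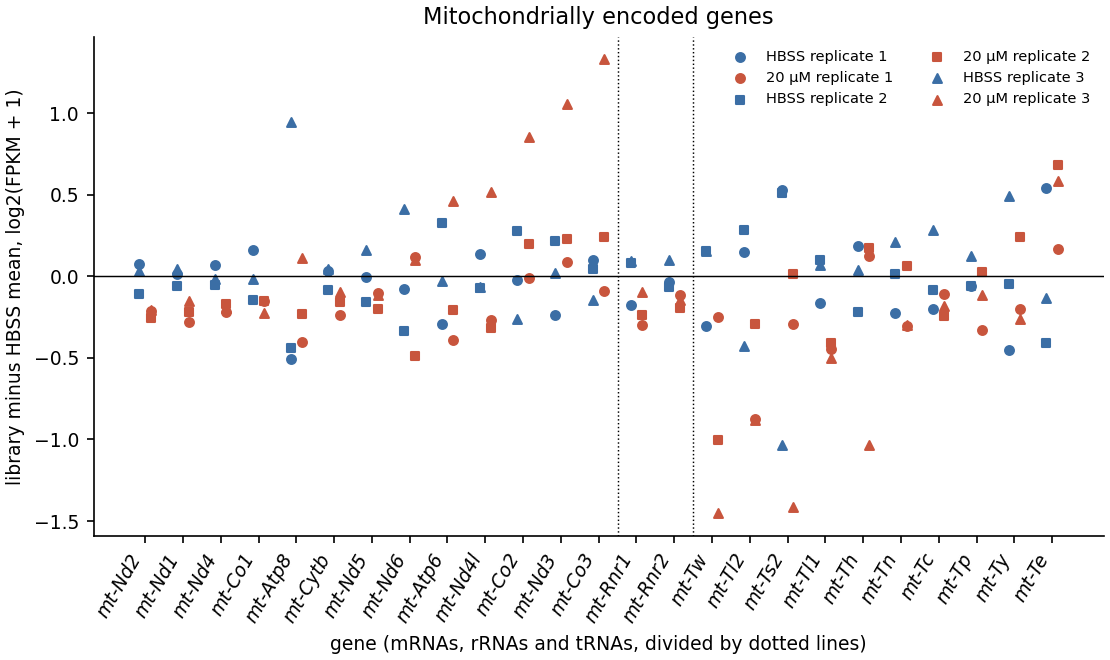
Each library's level minus the HBSS mean (y axis, log2(FPKM + 1)) for the mitochondrially encoded genes with an HBSS mean of at least 5 FPKM (x axis), as mRNAs, rRNAs and tRNAs. The red points of mt-Nd1, mt-Nd2, mt-Nd4, mt-Co1, mt-Cytb, mt-Rnr2 and mt-Tl1 all lie below the blue ones, while mt-Co3, mt-Nd3 and mt-Co2 have 1 high red triangle, 20 µM replicate 3.

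Nuclear genes of the respiratory chain stood at their HBSS levels in the median. Of 35 for complex I, 19 were higher and 16 lower (median 0.00019, and −0.010 with quantile normalization), and of 39 for complexes II to V, 15 were higher and 24 lower (median −0.0068). At 100 µM, with the same HBSS libraries, 34 of the 35 and all 39 were higher in mean, with medians of 0.18 in both lists. The 100 µM libraries leaned to short genes, with Spearman coefficients on exon length of −0.313, −0.417 and −0.411, and the part of this in the lists of short genes was not tested. At 20 µM Ndufab1, the mitochondrial acyl carrier protein, was at 8.41, 9.44 and 8.97 FPKM in HBSS and 7.70, 7.96 and 8.02 at 20 µM (log2 difference −0.16, unadjusted p = 0.015). Ndufa12, an accessory subunit, was at 16.1, 17.99 and 13.8 FPKM against 31.8, 19.1 and 20.5, where 20 µM replicate 1 alone stood far above the rest.

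The promoters of a pair of antioxidant genes show the kind of element through which NRF2 acts. The antioxidant response element was searched as the letters TGACNNNGC on both strands in the 250 bases before each start, in sequences from RefSeq on the mouse build GRCm38.p6. Among all 32851 promoters listed there, 10.16% held a match, and 13 of 75 (17.33%) among members of the 6 antioxidant and NRF2 target lists that had a promoter listed, out of 89 members. Gclm encodes the modifier subunit of the enzyme that starts glutathione synthesis, and Prdx1 encodes a thiol peroxidase that removes hydrogen peroxide. Both are among the 13 with a match, while the rest of the 75 held none. Their promoters, read 5′ to 3′ on the gene's strand with the match in capitals, lie at chr3:122245307-122245556 on the plus strand (Gclm) and at chr4:116685349-116685598 on the plus strand (Prdx1). Each match reads on the opposite strand, and they begin 134 and 133 bases before the start. A match is a description of letters and shows no binding.
Gclm: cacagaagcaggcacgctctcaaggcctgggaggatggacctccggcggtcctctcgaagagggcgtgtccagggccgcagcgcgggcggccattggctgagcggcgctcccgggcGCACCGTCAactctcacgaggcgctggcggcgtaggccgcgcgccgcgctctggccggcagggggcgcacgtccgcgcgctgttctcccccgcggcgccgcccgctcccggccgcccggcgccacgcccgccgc
Prdx1: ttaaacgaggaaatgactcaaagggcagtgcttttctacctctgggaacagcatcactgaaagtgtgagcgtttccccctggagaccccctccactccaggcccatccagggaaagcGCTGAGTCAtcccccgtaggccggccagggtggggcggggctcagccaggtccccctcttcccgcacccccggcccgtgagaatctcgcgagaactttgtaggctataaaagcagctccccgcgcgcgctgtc

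None of the antioxidant genes was called, and most intervals excluded a change of 1.5-fold. Gclm was at 11.3, 11.2 and 11.99 FPKM in HBSS and 11.8, 12.5 and 13.0 at 20 µM, with groups that overlapped (log2 difference 0.11, 95% interval −0.040 to 0.25). Prdx1 was at 489, 517 and 473 FPKM against 488, 514 and 521, and the groups overlapped throughout (0.043, interval −0.11 to 0.19). Of the regulators, Keap1, the sensor that holds NRF2, had 7.09 ± 0.41 and 7.56 ± 0.26 FPKM, and Nfe2l2, which encodes NRF2, had 59.2 ± 5.3 and 57.3 ± 1.2. All 9 measured regulators had intervals within 1.5-fold, 3 higher and 6 lower.

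In glutathione synthesis and cystine import, 4 of 7 members were higher, 2 of them without overlap, where 53.8% of all genes were higher and 4.09% were higher without overlap. Slc7a11, the cystine transporter, was at 7.15, 7.25 and 7.65 FPKM in HBSS and 7.74, 8.16 and 7.66 at 20 µM, with barely a gap between the groups. Gss, glutathione synthetase, was at 7.06, 7.02 and 6.95 FPKM against 7.79, 7.25 and 7.46. Gclc, the catalytic subunit, had 22.3 ± 1.4 and 21.6 ± 0.6 FPKM. The 16 glutathione enzymes (11 higher, median 0.025) and the 19 genes of the thioredoxin and peroxiredoxin system (14 higher, median 0.019) all had intervals within 1.5-fold. Txn2, the mitochondrial thioredoxin, was at 27.2, 28.6 and 28.4 FPKM against 30.1, 29.8 and 30.3, the only one of those 19 without overlap. Txnrd1, thioredoxin reductase, had a difference of 0.015, which was −0.0025 with quantile normalization.

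Among the other NRF2 targets, 9 of 13 were higher, with a median of 0.047. Osgin1, an oxidative stress-induced growth inhibitor, was the farthest, at 5.71, 4.12 and 5.04 FPKM in HBSS and 5.61, 7.15 and 7.10 at 20 µM. Here 20 µM replicates 2 and 3 stood above all HBSS libraries and replicate 1 did not. The log2 difference was 0.36 (SE 0.11, 95% interval 0.10 to 0.61, unadjusted p = 0.011), so a 1.5-fold change is inside its interval. At 100 µM Osgin1 averaged 7.01 FPKM. Cbr1, carbonyl reductase, was at 5.18, 5.22 and 5.27 FPKM against 5.58, 5.45 and 5.67. Nqo1, often used to report NRF2 activity, was below the minimum, at 0.41 ± 0.08 and 0.56 ± 0.09 FPKM.

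Hmox1, heme oxygenase, varied within each group. It was at 75.9, 90.6 and 95.03 FPKM in HBSS and 77.8, 90.4 and 112.3 at 20 µM, with a log2 difference of 0.090 (SE 0.15, interval −0.24 to 0.42) that changed sign, down to −0.049, when single libraries were left out. Of 20 genes of heme and iron handling, 12 were higher and all had intervals within 1.5-fold. Fth1, ferritin heavy chain, was at 1943, 1986 and 1811 FPKM against 2014, 2081 and 2063, with no overlap. Ftl1, the light chain, was at 1477, 1435 and 1444 FPKM against 1441, 1423 and 1261.

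Superoxide is made in macrophages by the phagocyte oxidase and removed by dismutases and catalase. Of 11 such genes 9 were higher, 3 without overlap, against 4.09% of all genes. Their median of 0.036 was 0.012 without HBSS replicate 1, 0.062 without HBSS replicate 2 and 0.077 without 20 µM replicate 1. Cat, catalase, was at 74.8, 72.9 and 68.5 FPKM in HBSS and 75.7, 77.1 and 76.1 at 20 µM. Ccs, the copper chaperone of superoxide dismutase, was at 9.23, 9.57 and 7.92 FPKM against 9.78, 10.1 and 10.1, and Ncf4, an oxidase subunit, at 173, 172 and 163 against 177, 180.4 and 177. The separations were small beside the spread within HBSS. For NADPH supply 12 of 14 genes were higher (median 0.027), led by Me1, malic enzyme, at 8.30, 9.33 and 8.67 FPKM against 9.96, 10.4 and 9.23 (log2 difference 0.15, unadjusted p = 0.026). Of 17 genes for repair of oxidized DNA 10 were higher and 1 was lower without overlap, where 3.47% of all genes were. The glycosylase Ogg1 had a log2 difference of 0.10 with overlapping groups.

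**Figure D4:**
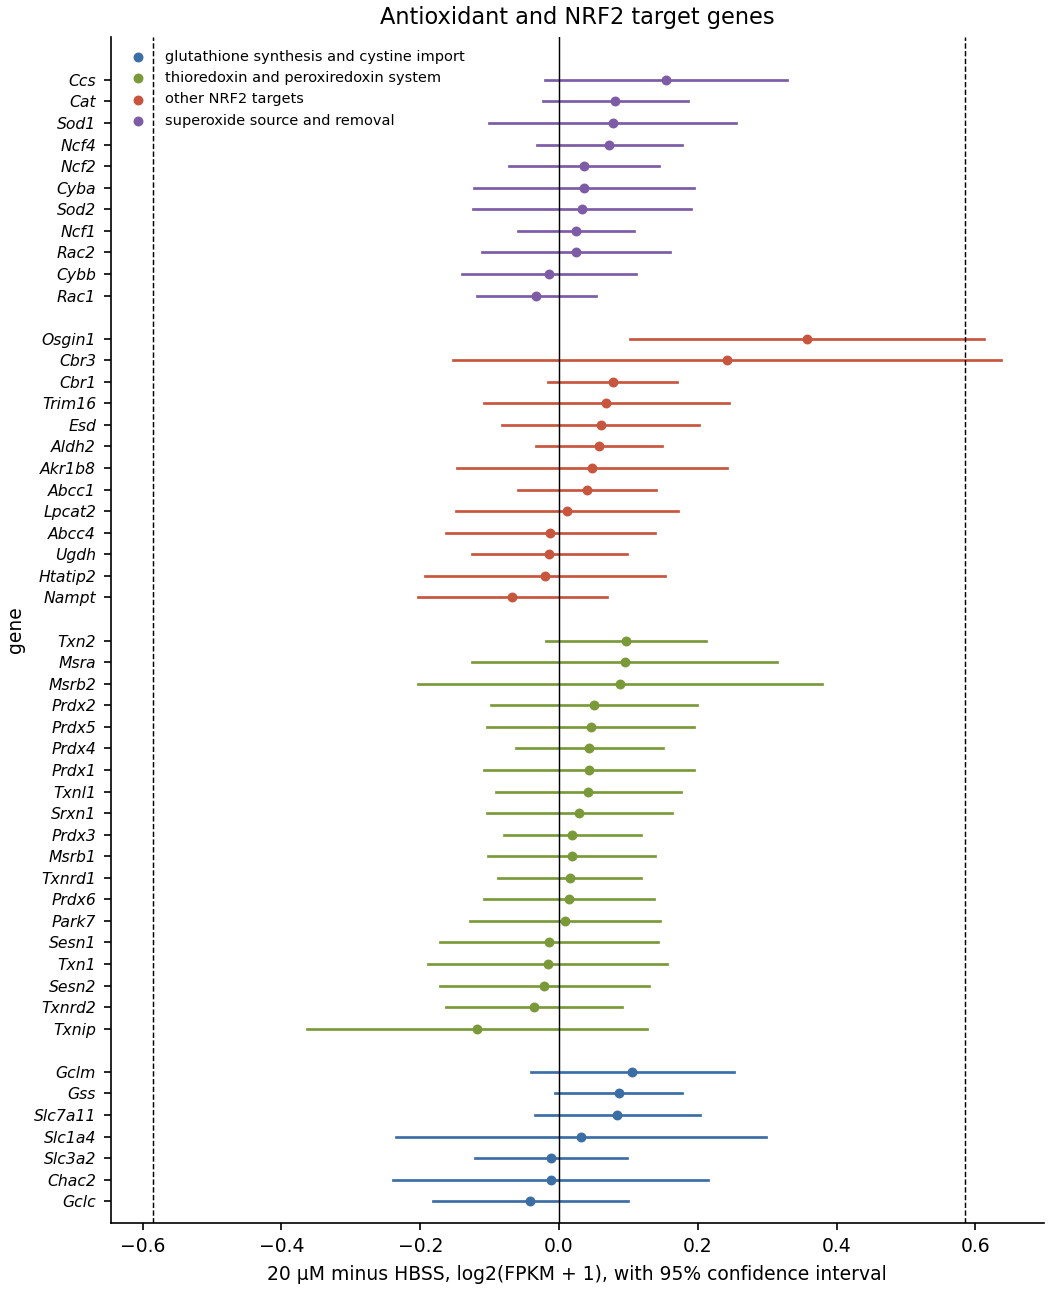
Log2 difference of 20 µM minus HBSS (x axis, on log2(FPKM + 1)) with its 95% confidence interval for measured genes of 4 lists (y axis). Dashed lines mark 1.5-fold; Osgin1 and Cbr3 alone reach past them.

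Genes of mitophagy stood near their HBSS levels. Of 14 receptors and adaptors 8 were higher and 6 lower (median 0.016, and −0.0009 with quantile normalization), and of 16 kinases, ligases and deubiquitinases 9 were higher and 7 lower (median 0.0022, and −0.0094). All 30 had intervals within 1.5-fold. Fundc1, an outer membrane receptor, was the only one of the 14 without overlap, at 7.96, 7.80 and 7.09 FPKM in HBSS and 7.06, 7.09 and 6.98 at 20 µM, and the gap between the groups was smaller than these digits show. Ppm1k, a mitochondrial phosphatase, was the only one of the 16 without overlap, at 3.68, 3.05 and 3.003 FPKM against 2.94, 2.91 and 2.74. Among all genes 3.47% were lower without overlap, as both of these were. For the kinase Pink1 the 95% interval was −0.33 to 0.16, for the receptor Bnip3 −0.31 to 0.19 and for the receptor Bnip3l −0.24 to 0.12. HBSS replicate 1 held the highest value of all 6 libraries in these 3 genes, at 5.85, 17.6 and 27.3 FPKM, and without it each difference changed sign, to 0.045, 0.061 and 0.022. Sqstm1, the adaptor p62, had an interval of −0.22 to 0.28.

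The machinery that forms autophagosomes had 25 of 42 genes higher and 5 above HBSS without overlap, with none below (median 0.013). Pik3c3, the lipid kinase that marks the forming membrane, was at 7.30, 7.42 and 7.25 FPKM in HBSS and 7.60, 7.77 and 8.41 at 20 µM. Nrbf2, a partner of that kinase, was at 5.60, 5.90 and 5.92 FPKM against 6.35, 6.58 and 6.02. Both sets were apart, with log2 differences of 0.10 each. Atg2a, Atg3 and Uvrag, which transfer lipid, attach lipid to LC3 proteins and join the same kinase complex, were the others, at 0.077, 0.067 and 0.081. Their share, 5 of 42, can be read against 4.09% of all genes. Of 32 lysosomal genes 21 were lower, 5 of them without overlap, and 2 were higher without overlap (median −0.010), where all genes had 3.47% lower and 4.09% higher in this way. The median was −0.017 without HBSS replicate 2, −0.033 without HBSS replicate 3 and −0.019 without 20 µM replicate 2. Ctsc, cathepsin C, was at 75.1, 80.2 and 80.6 FPKM against 74.6, 74.6 and 73.0. Mitf, of the transcription factor family that drives lysosome genes, was at 9.57, 8.24 and 8.90 FPKM against 9.61, 10.2 and 9.57. Of 18 genes of mitochondrial fusion, fission and transport 12 were higher (median 0.024), and of 29 of mitochondrial import and proteostasis 17 were lower (median −0.012).

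Interferon-stimulated genes were lower in mean for 31 of 40 members. Of all genes 46.2% were lower in mean. The list's median log2 difference was −0.064, and it was −0.040 without HBSS replicate 2, −0.025 without 20 µM replicate 1 and −0.11 without 20 µM replicate 3. Without overlap 5 members were lower and none was higher, where 3.47% of all genes were lower in this way. Oas1a and Oas1g encode oligoadenylate synthetases, which sense double-stranded RNA and switch on RNase L, and Ifi44 encodes an interferon-induced protein. The transcription factor complex of type I interferon binds interferon-stimulated response elements, searched here as GAAA, any 2 bases and GAAA on both strands in the same RefSeq promoters. Of all promoters 2.977% held a match, and of the 30 members with a promoter there 13 did, or 43.33%. The promoters of the 3 genes follow because they had the smallest unadjusted p in the list, with matches in capitals. Oas1a (chr5:120907526-120907775, minus strand) and Oas1g (chr5:120887614-120887863, minus strand) each hold 2 matches that overlap each other. Ifi44 (chr3:151749911-151750160, minus strand) holds none, which says only that these letters are not in this window.
Oas1a: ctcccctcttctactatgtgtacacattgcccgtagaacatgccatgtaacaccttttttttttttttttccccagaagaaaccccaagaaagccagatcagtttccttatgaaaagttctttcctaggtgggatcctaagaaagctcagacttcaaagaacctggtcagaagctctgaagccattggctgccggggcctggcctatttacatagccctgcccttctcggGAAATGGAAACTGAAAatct
Oas1g: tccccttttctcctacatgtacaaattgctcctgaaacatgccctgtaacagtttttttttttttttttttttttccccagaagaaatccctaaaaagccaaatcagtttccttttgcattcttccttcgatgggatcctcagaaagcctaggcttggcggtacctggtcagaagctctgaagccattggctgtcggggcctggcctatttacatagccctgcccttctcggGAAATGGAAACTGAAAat
Ifi44: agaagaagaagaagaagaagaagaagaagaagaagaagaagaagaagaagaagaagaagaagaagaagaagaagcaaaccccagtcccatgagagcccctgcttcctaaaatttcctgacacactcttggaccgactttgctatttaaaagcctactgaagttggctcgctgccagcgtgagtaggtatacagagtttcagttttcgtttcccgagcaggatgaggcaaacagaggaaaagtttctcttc

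Ifi44 was at 4.86, 5.00 and 5.13 FPKM in HBSS and 3.75, 3.71 and 4.21 at 20 µM. The groups were well apart, with a log2 difference of −0.30 (SE 0.062, 95% interval −0.44 to −0.15, unadjusted p = 0.0012). Oas1a was at 41.0, 42.9 and 43.6 FPKM against 36.1, 37.7 and 38.8 (−0.18, unadjusted p = 0.0023), and Oas1g at 24.4, 27.1 and 26.2 against 21.7, 22.3 and 23.2 (−0.20, unadjusted p = 0.014). These genes resemble each other closely, as their promoters also show, and may share reads, so their values are less certain. Oas2, at 5.26 ± 0.39 and 4.39 ± 0.42 FPKM, and Rtp4 were the other members below HBSS without overlap. Relative to the HBSS mean the list's median stood at −0.16 and −0.076 in 20 µM replicates 1 and 2 and at 0.019 in replicate 3, and at −0.063 in HBSS replicate 1. At 100 µM, against the same HBSS libraries, limma called 4 of the list's 40 members, where it called 0.258% of all genes. They were Ifi44 at 3.34, Oas1g at 18.9, Oas2 at 3.05 and Ifi203 at 7.72 FPKM.

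Immediate early genes and AP-1 factors, which respond within minutes to growth factors and stress, had 17 of 23 members higher and a median of 0.088. This median moved with single libraries, to 0.15 without HBSS replicate 1, 0.014 without HBSS replicate 2, 0.038 without HBSS replicate 3 and 0.049 without 20 µM replicate 3. Apart from Egr1, Ier2 was higher without overlap, at 19.6, 20.4 and 20.3 FPKM in HBSS and 21.7, 22.8 and 27.8 at 20 µM. Among all genes 53.8% were higher in mean and 4.09% were higher without overlap. HBSS replicate 1 stood apart from the other HBSS libraries in this list, at 0.13 against −0.066 and −0.072 for the median member. Fos, an AP-1 subunit, spread to 20.0 ± 19.3 FPKM in HBSS against 14.4 ± 2.9, and Dusp1, a phosphatase of stress kinases, to 45.5 ± 34.8 against 40.9 ± 5.2, so their intervals (−1.40 to 1.24 and −0.87 to 1.05) allowed more than a 1.5-fold change either way. Jun was at 32.2 ± 3.7 and 33.4 ± 2.7 FPKM.

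Growth arrest genes held a pair with larger differences. Gadd45g, a growth arrest and DNA damage inducible gene, was at 2.75, 2.53 and 2.10 FPKM in HBSS and 2.96, 3.84 and 3.97 at 20 µM (log2 difference 0.40, SE 0.11, unadjusted p = 0.0061). Cdkn1b, the cyclin-dependent kinase inhibitor p27, was at 13.2, 14.8 and 14.95 FPKM against 12.6, 12.6 and 11.8 (−0.20, unadjusted p = 0.038). In both the groups were separate. Cdkn1a, the inhibitor p21 and a p53 target, had 34.5 ± 1.0 and 35.9 ± 2.1 FPKM and an interval of −0.070 to 0.18. Of the 25 genes of this list 14 were higher and 11 lower. Plk3 was also higher without overlap, with a smaller log2 difference of 0.16. Of 26 BCL2 family and caspase genes 13 were higher and 13 lower, and of 18 pyroptosis and necroptosis genes 10 were higher and 8 lower. The groups overlapped for every one of them, where 7.57% of all genes were without overlap. Nlrp3, the inflammasome sensor, was at 14.7, 14.3 and 15.8 FPKM against 15.1, 16.99 and 17.3. DNA replication genes were higher for 33 of 43, with a median of 0.026 that ranged from −0.051 to 0.076 when single libraries were left out. No member's groups were separate, again beside 7.57% of all genes. The replication list was lowest in HBSS replicate 1, at −0.16, and highest in 20 µM replicate 3, at 0.13. Replicate 1 was also the lowest of the 20 µM libraries, at −0.062. Of 37 mitosis genes 23 were higher (median 0.011, and −0.0008 with quantile normalization), with Ccnb1, cyclin B, higher and Cenpa, the centromeric histone, lower without overlap.

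Targets of ATF4 and CHOP, the factors of the integrated stress response, had 12 of 23 higher (median 0.020, and −0.0047 with quantile normalization) and 1 without overlap, Slc7a11. Among all genes 7.57% were without overlap. Chac1, which degrades glutathione, was at 9.84, 14.1 and 16.2 FPKM in HBSS and 11.1, 11.9 and 10.4 at 20 µM. Ddit3, which encodes CHOP, was at 24.4 ± 2.0 and 22.8 ± 3.5 FPKM. At 100 µM 1 of the 23 was higher in mean, with a list median of −0.19. The heat shock response had 5 of 15 higher (median −0.014) and endoplasmic reticulum chaperones 11 of 22 (median 0.0018, and −0.014 with quantile normalization), all with intervals within 1.5-fold. The median heat shock gene stood at −0.14 in HBSS replicate 1 and at 0.073 and 0.079 in the other HBSS libraries, a spread within the vehicle that was wider than the difference between the groups. Among the 20 µM libraries replicate 1 was also the lowest, at −0.083.

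Of 28 chemokine, cytokine and NF-kB feedback genes 16 were higher. None was free of overlap, where 7.57% of all genes were. Tnf was at 111, 137 and 155 FPKM in HBSS and 130, 143 and 143 at 20 µM, and the chemokine Ccl2 at 420, 452 and 491 against 419, 477 and 507. Of 25 Toll-like receptor and adaptor genes 15 were lower (median −0.0023). Ly96, which encodes the MD-2 partner of TLR4, was the 1 member lower without overlap, at 15.8, 13.7 and 13.2 FPKM against 12.7, 11.1 and 11.7 (−0.25, SE 0.081, unadjusted p = 0.015). At 100 µM Ly96 averaged 10.7 FPKM. Of 27 macrophage genes 15 were higher (median 0.012, and −0.0033 with quantile normalization). Fcgr1, the high-affinity IgG receptor, was lower and Clec4n, the lectin Dectin-2, was higher without overlap, with log2 differences of −0.10 and 0.17.

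Metabolic and housekeeping lists had medians close to 0. Of 27 glycolysis and hypoxia genes 21 were higher (median 0.031), of 34 cholesterol genes 17 (median 0.0026, and −0.013 with quantile normalization) and of 32 proteasome genes 22 (median 0.0080, and −0.0020). Of 58 cytosolic ribosomal protein genes 27 were higher (median −0.0053). Their many processed copies may take reads, so these values are uncertain. Rps10, at 2.26, 2.13 and 2.39 FPKM in HBSS and 3.70, 3.14 and 2.79 at 20 µM, was the 1 member higher without overlap. Among all genes 4.09% were higher and 3.47% lower in this way. Rps23, at 419, 411 and 375 FPKM against 364, 374.5 and 371, and Rpl10, at 333, 345 and 332 against 324, 329.7 and 327, were lower without overlap, by small gaps. At 100 µM 55 of these 58 and 30 of the 32 proteasome genes were higher in mean.

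**Figure D5:**
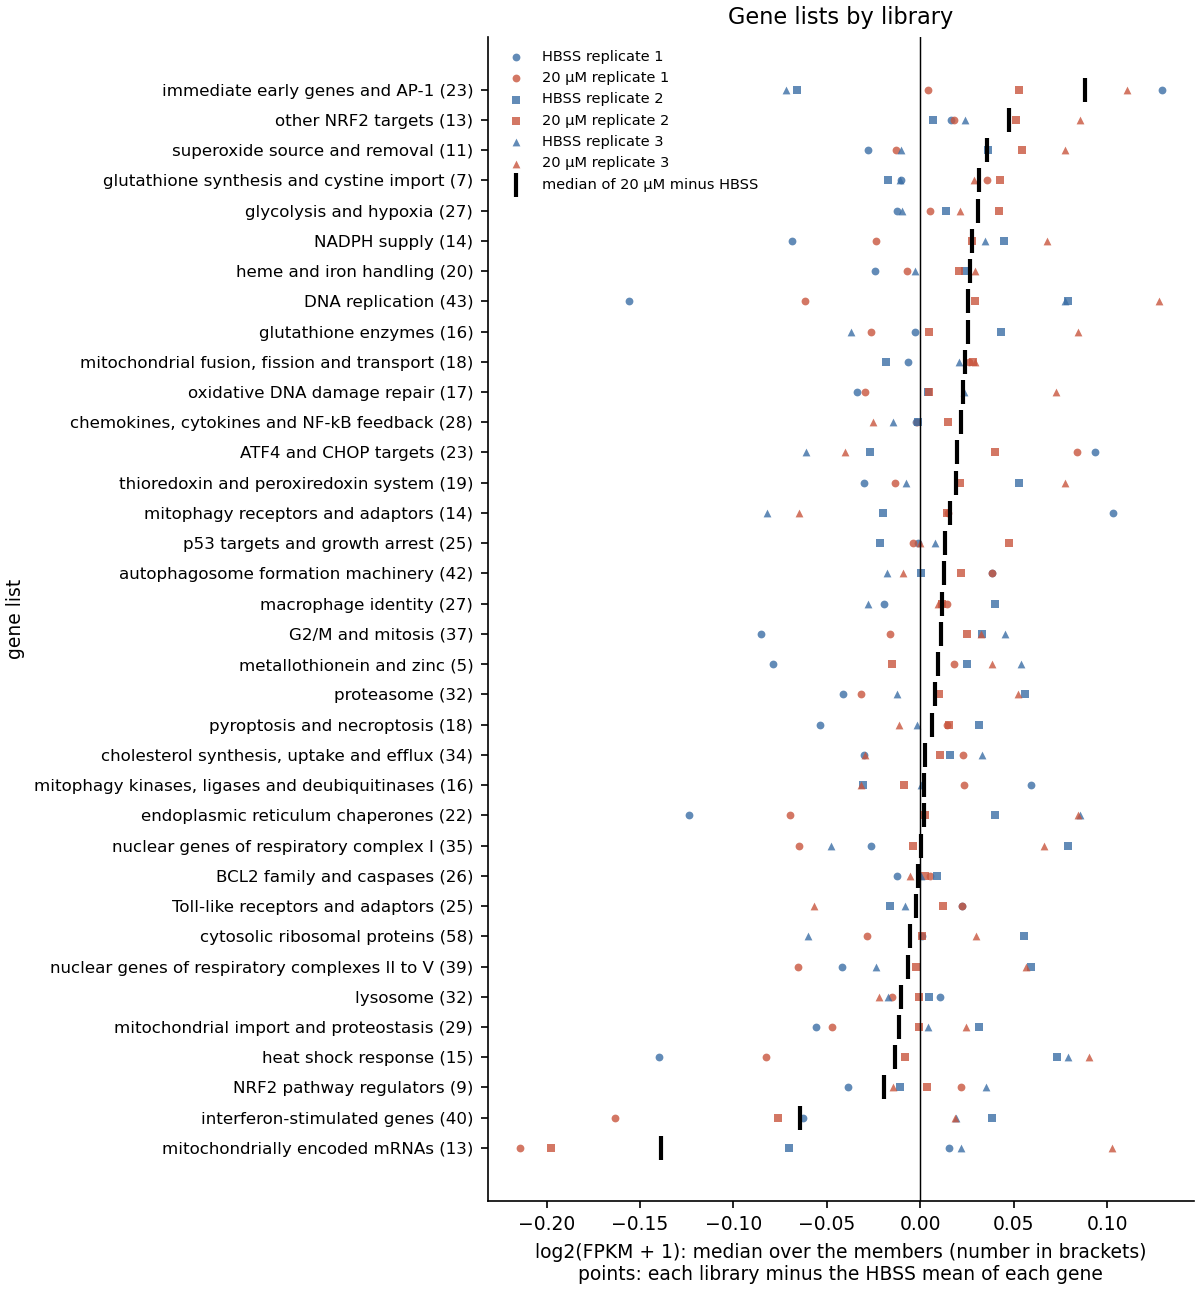
Median over the measured members of each gene list (y axis, number of members in brackets) of the log2 difference of 20 µM minus HBSS (black bar) and of each library minus the HBSS mean (points), on the log2(FPKM + 1) scale (x axis). The libraries of both groups interleave in most lists; immediate early genes (0.088, but 0.014 without HBSS replicate 2), interferon-stimulated genes (−0.064) and mitochondrially encoded mRNAs (−0.14) lie farthest from 0.

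The genes that limma called at 100 µM had their own values at 20 µM, which are given side by side and share the HBSS libraries. The call used the same HBSS values and the same standard error of each gene. Separation and unadjusted p at 20 µM are therefore not independent of how these genes were chosen, and add no support. Mmp12, macrophage elastase, was at 213, 205 and 202 FPKM in HBSS, 237, 235 and 228 at 20 µM and 265, 271 and 255 at 100 µM. No library of one group overlapped with another, and the log2 difference at 20 µM was 0.17 (SE 0.040, unadjusted p = 0.0021). Ptgs1, cyclooxygenase 1, was at 32.1, 30.6 and 31.9 FPKM, then 39.3, 41.6 and 34.6, then 43.3, 43.4 and 41.7 (0.28 at 20 µM, unadjusted p = 0.0019). Clk1, a kinase of splicing factors, was at 11.6, 12.8 and 12.03 FPKM, then 10.2, 10.3 and 10.6, then 9.23, 8.27 and 7.95 (−0.22 at 20 µM, unadjusted p = 0.0055).

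Smaller differences at 20 µM were seen for Hlx, a homeobox factor, at 8.34 ± 0.26, 9.05 ± 0.05 and 10.9 ± 0.2 FPKM in HBSS, 20 µM and 100 µM. Khk, ketohexokinase, was at 8.92 ± 0.64, 10.0 ± 0.3 and 12.1 ± 0.6 FPKM. Itga9, an integrin subunit, was at 7.57 ± 0.27, 6.78 ± 0.18 and 5.75 ± 0.29 FPKM. Each of these groups was separate at 20 µM, with log2 differences of 0.11, 0.15 and −0.14. Others called at 100 µM overlapped at 20 µM. Aurkaip1, a protein of the mitochondrial ribosome, was at 21.6 ± 0.7, 21.1 ± 0.05 and 27.1 ± 1.0 FPKM. Rps12 was at 89.0 ± 6.5, 96.6 ± 1.5 and 117.7 ± 6.3 FPKM, and Tnnt3 at 2.64 ± 0.16, 2.55 ± 0.12 and 1.76 ± 0.05. At 20 µM their log2 differences were −0.033, 0.12 and −0.037.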

How the data were processed

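mRNA libraries of 12 samples in 4 groups of 3 were deposited as 1 table of FPKM values, made by the authors, with 28977 gene IDs. Per the submitters' processing notes, HISAT2, featureCounts and the mouse build GRCm39 were used, and their versions and settings, strand included, are not given in the sources used here. Without strand, overlapping and antisense genes cannot be told apart. Per the labels, libraries were sequenced on either of a pair of instruments, and which ran on which is not stated, so no batch by instrument was tested. Symbols, biotypes and exon lengths came from GENCODE M21, which is of the older build GRCm38, and 28302 IDs had a symbol. Promoters came from RefSeq on GRCm38.p6.

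In each library, FPKM times exon length moved in steps of 1 size, and that step was taken as 1 read. About 98% of values below 1 FPKM came out whole within 0.01 (98.25% to 98.36% in the 6 libraries). These reads served for depth and for limma-voom, and show counting error only.

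The 11632 genes at 1 FPKM or above in 3 or more of the 6 libraries were tested as log2(FPKM + 1), a scale that understates changes of low genes. Of these, 10854 reached 1 FPKM in all 6 libraries, 11 only through the 20 µM group and 11 only through HBSS. Phpt1 lay just inside the threshold with a deciding value of 1 FPKM, and Gm12259 just outside it with 0.9999. limma 3.58.1 in R 4.3.3 was fitted with 1 mean per group on the 9 libraries of HBSS, 20 µM and 100 µM (6 residual degrees of freedom, mean-variance trend, two-sided), with Benjamini-Hochberg adjustment over all 11632 genes and a threshold of 0.05. With 3 libraries against 3, the smallest p of an exact permutation test is 0.1, and none was run. The cell media libraries entered 1 alternative only. The fit was tested on simulated data that held no effect shared by same-numbered replicates. Its recovery of small changes there is not given here.

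The members, 36 gene lists, 30 panel genes and tests were chosen with earlier results of these data known. Named genes were, in each direction, the 8 with the largest difference among genes with a symbol that averaged 5 FPKM or more and had separate groups (none was called), the 6 with the smallest unadjusted p, up to 3 members per list with the smallest unadjusted p, and the panel. Genes called at 100 µM are given beside these, and any other gene was chosen after its values were seen. Alternatives changed the pseudocount, the filter, the scaling, the libraries, the block, the variance model and the unit. Tables and plots used Python 3.11.15, numpy 2.4.6, pandas 2.3.3, scipy 1.17.1 and matplotlib 3.10.9. Of the 144 genes that met the naming rule, not all are named in the text.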

Additional observations from a re-analysis of the deposited data

How the results depend on the processing

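The count of genes called stayed at 0 in 20 of 22 alternatives. Without the filter on low values it was 10, 7 of them higher, and in all 10 a group was at 0 in its 3 libraries, so these genes are outside the comparison. With single libraries left out it ranged from 0 to 2. The count of intervals within 1.5-fold was 20123 without the filter, where more genes are tested, and between 10408 and 10682 with single libraries left out. It was 10067 with a pseudocount of 0.1, 10007 with all 12 libraries and 10037 with limma-voom, against 10635 in the main fit. The count of genes whose groups did not overlap was 1912 without the filter and 495 at a mean of at least 5 FPKM, and between 1418 and 2382 with single libraries left out, where fewer libraries have to be separated. With all 12 libraries, 116 genes had an unadjusted p under 0.05, against 354.

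Deviations of same-numbered replicates correlated with r of 0.395 and 0.145 for numbers 1 and 3 and −0.0432 for number 2. The main fit did not pair the samples by number, so its intervals and p-values do not account for what same-numbered replicates share. By these deviations, 2 of 3 HBSS libraries correlated best with their own number. On the first principal component replicate 1 was the lowest of its group in HBSS (−17.1), at 20 µM (−13.9) and at 100 µM (1.80). What same-numbered replicates share was not tested. Without a replicate block limma's smallest adjusted p was 0.9998, with 354 genes at an unadjusted p under 0.05. With the replicate block limma called 0 genes on 9 libraries (smallest adjusted p = 0.239, 599 genes at an unadjusted p under 0.05) and 0 on 6 (adjusted p = 0.308, 644 genes), and 10777 and 10855 intervals lay within 1.5-fold.

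Of 144 named genes, 127 kept their sign under every alternative run. Quantile normalization gave −0.0025 for Txnrd1. It gave 0 for mt-Nd1, a value it gives any gene that keeps its rank, whatever the change in level. With single libraries left out, the ranges of the log2 difference that crossed 0 were −0.0090 to 0.20 for Dnajb1, −0.082 to 0.011 for Slc39a10, −0.16 to 0.045 for Pink1, −0.12 to 0.061 for Bnip3 and −0.11 to 0.022 for Bnip3l. They were −0.049 to 0.21 for Hmox1, −0.016 to 0.045 for Txnrd1, −0.15 to 0.20 for Gadd45a, −0.070 to 0.17 for Tnf, −0.021 to 0.12 for Ccl2 and −0.19 to 0.0096 for Il18. They were −0.092 to 0.19 for Trib3, −0.066 to 0.14 for Sqstm1, −0.0069 to 0.064 for Map1lc3b, −0.029 to 0.15 for Mt1 and −0.022 to 0.065 for Srxn1. The cause was not tested. Of 36 list medians, 27 changed sign under at least 1 alternative, 11 of them with either scaling, and 14 moved by more than the spread between replicates. Removal of the exon length trend was chosen after seeing the data. The part of depth in the 352 intervals that reached past 2-fold was not tested.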
